A study of Mus musculus with 2 samples.

Results

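Mir128-1 and Mir128-2 are the pair of mouse genes whose hairpins give rise to miR-128. They were chosen by name, as 2 of the 2202 microRNA genes counted in each library, after the Ensembl identifiers of the counts had been matched to GENCODE M21 symbols. Mir128-1 had 51762 reads in replicate 2 and 24999 in replicate 1. Mir128-2 had 11106 reads in replicate 2 and 6395 in replicate 1. Both genes were therefore read more often in replicate 2, and Mir128-1 exceeded Mir128-2 in both libraries. The study consists of 2 small RNA libraries of wild-type female mouse hippocampus, strain B6NCrl, which the labels call biological replicates of a single control group. The tissue is described as layer of hippocampus with no layer named, the age field holds no value, and both biosamples point to one donor record. Both come from the mouse resource MODEL-AD. The labels do not say whether separate animals were used, so the spread between the libraries may be technical. With 1 group there is no treatment contrast, and each test below compares genes or libraries by their reads.

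A microRNA gene is transcribed as part of a longer RNA from which a hairpin is cut. The hairpin is then diced into a 5p arm and a 3p arm, and the arm loaded into Argonaute directs repression of messenger RNAs that pair with its seed, bases 2 to 8. For miR-128 the 3p arm is the one known to act on targets, while the 5p arms are mostly regarded as passenger strands. miR-128 is enriched in brain and in neurons, where it is known to dampen excitability. In mice, loss of Mir128-2 is known to cause hyperactivity and fatal seizures.

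The hairpins are printed first because the sequence shared between them decides which reads could be counted at either gene. The sequences are from RefSeq (GRCm38.p6, the same build as mm10), and capitals mark the stretch that is identical in both. The first lies at chr1:128202361-128202430 on the plus strand and the second at chr9:112118636-112118711 on the minus strand.
Mir128-1 hairpin: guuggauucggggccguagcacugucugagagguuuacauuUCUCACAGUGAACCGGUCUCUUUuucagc
Mir128-2 hairpin: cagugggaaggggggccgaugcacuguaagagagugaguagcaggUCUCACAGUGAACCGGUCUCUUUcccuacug

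The identical stretch was 23 nt long. It covered positions 42 to 64 of the 70 nt Mir128-1 hairpin and positions 46 to 68 of the 76 nt Mir128-2 hairpin. It held the whole annotated 3p arm of 21 nt with 2 shared bases before it and 0 after it. The 3p arm was found in 2 of the 2202 annotated hairpins, these being the Mir128 hairpins. Extended by the 1 base that follows it in either hairpin, or by the 3 bases that precede it, it was found in 1 hairpin. Each 5p arm was found in 1 hairpin.

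**Figure D1:**
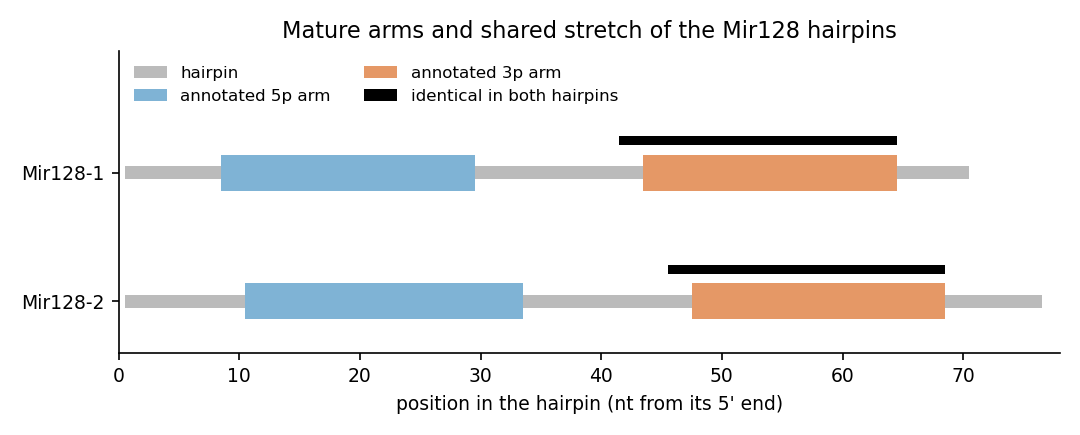
Positions along the hairpins of Mir128-1 (70 nt, above) and Mir128-2 (76 nt, below), in nucleotides from the 5' end. Grey bars are the hairpins, blue boxes the annotated 5p arms, orange boxes the annotated 3p arms, and the black bar the 23 nt stretch identical in both, which spans the 3p arm and none of the 5p arm.

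The mature arms are printed next with the seed in capitals, to show which of them the genes have in common.
miR-128-1-5p: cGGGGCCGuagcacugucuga
miR-128-2-5p: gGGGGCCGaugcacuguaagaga
miR-128-3p: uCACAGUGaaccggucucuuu

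The 3p arm is a single sequence for both genes. The 5p arms had the same seed but differed outside it. Counted from the 5' end and written from miR-128-1-5p to miR-128-2-5p, the substitutions were C1G, U9A, A10U, C18A and U19A. Over the 21 positions compared without gaps, 16 were identical, and the longest identical run of the 5p arms had 7 bases. Among 1738 mature entries of the RefSeq table, no other gene had the seed of miR-128-3p or that of the 5p arms.

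The deposited counts are per gene and do not separate arms. Multi-mapped reads, which count towards none of the genes, made up 45.9% of the 14300757 reads of replicate 2 and 43.9% of the 15794475 reads of replicate 1. A read that ends where the annotated 3p arm ends fits both genes equally and would fall in that class. The counts at Mir128-1 and Mir128-2 can hold 5p reads, and 3p reads that run past the shared stretch. How the counts divide between these was not tested, and the amount of miR-128-3p, the arm with the known targets, cannot be read from them. Of the 18 nt windows in the hairpins, 47 of 53 in Mir128-1 and 53 of 59 in Mir128-2 occurred in no other annotated microRNA hairpin.

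Both genes lie within introns on the strand of their hosts. Mir128-1 is in intron 19 of R3hdm1, in an annotated transcript of 27 exons, and this intron has 14107 bases. It starts 5263 bases after exon 19 and ends 8774 bases before exon 20. Mir128-2 is in intron 17 of Arpp21, in an annotated transcript of 19 exons, and this intron is longer, at 51873 bases. There the hairpin lies 471 bases after exon 17 and 51326 bases before exon 18. The hosts encode related RNA-binding proteins with an R3H domain, and Arpp21, a phosphoprotein regulated by cyclic AMP, is known as a forebrain neuron gene.

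**Figure D2:**
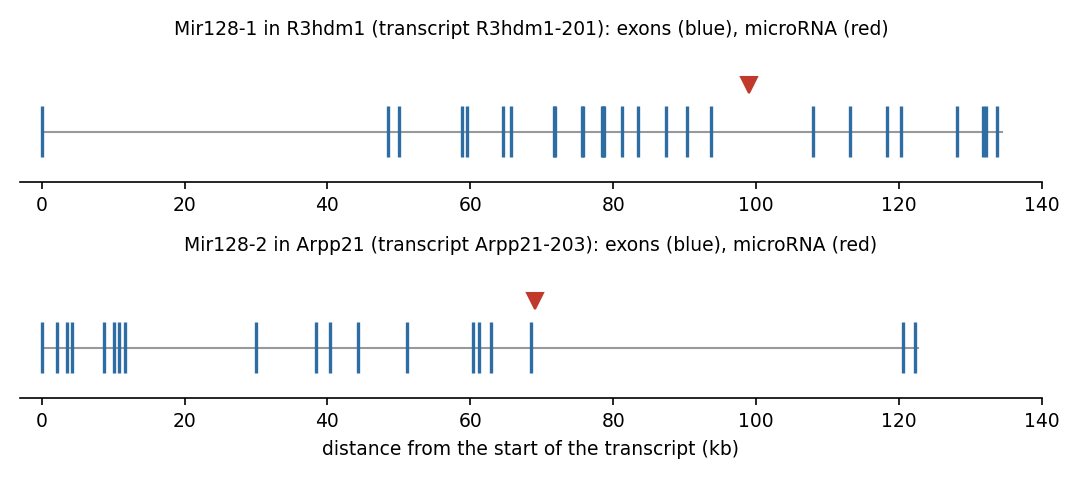
Position of each microRNA (red triangle) among the exons (blue lines) of a host transcript, by distance from the transcript's start in kb. Mir128-1 lies well inside intron 19 of R3hdm1, whereas Mir128-2 lies just after exon 17 of Arpp21, at the start of a long intron.

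No exon of any annotated host transcript covered either hairpin. Of the 16 R3hdm1 transcripts 2 span Mir128-1, and of the 31 Arpp21 transcripts 9 span Mir128-2. Neither host contains another annotated microRNA gene, and 0 others lie within 100 kb of either hairpin. Neither gene has a microRNA gene on the opposite strand, and both had 0 opposite-strand counts in both libraries, so counts with and without strand were the same. Messenger RNA was not measured in these libraries, so the levels of R3hdm1 and Arpp21 are unknown here.

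Levels are given in CPM, the sense counts of a gene scaled to a total of sense counts common to both libraries. The totals were 5901107 sense counts in replicate 2 and 6713867 in replicate 1. The annotated arms differ little in length (21 to 23 nt), and no length scaling was applied. Mir128-1 stood at 8772 CPM in replicate 2 (exact 95% interval 8697 to 8847) and at 3723 CPM in replicate 1 (3678 to 3770). It was the gene of rank 22 in replicate 2 and of rank 41 in replicate 1, and of rank 30 by its mean of 6248 ± 3570 CPM (SD, n = 2).

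Mir128-2 stood at 1882 CPM in replicate 2 (exact 95% interval 1847 to 1917) and at 953 CPM in replicate 1 (929 to 976). Its ranks were 55 in replicate 2 and 91 in replicate 1, with rank 74 by its mean of 1417 ± 657 CPM (SD, n = 2). The values of the pair did not overlap: the lowest value of Mir128-1 was above the highest of Mir128-2. Together they made up 1.07% of the sense counts of replicate 2 (exact 95% interval 1.06 to 1.07) and 0.468% of those of replicate 1 (0.462 to 0.473). The intervals cover counting error only, and for both genes they were far narrower than the gap between the libraries. In bulk tissue a change in the number of cells of a type cannot be told apart from a change in RNA per cell.

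Within a library the ratio of the genes needs no scaling. Mir128-1 had 4.66 times the counts of Mir128-2 in replicate 2 (exact 95% interval 4.57 to 4.76) and 3.91 times in replicate 1 (3.80 to 4.02). The mean log2 ratio was 2.09 ± 0.18 (SD, n = 2), so the excess of Mir128-1 was far larger than its spread between the libraries. Mir128-1 thus supplied 82.3% of the counts of the pair in replicate 2 and 79.6% in replicate 1. The ratio was higher in replicate 2 than in replicate 1 by 0.25 on the log2 scale (counting SE 0.03), an odds ratio of 1.19 (95% interval 1.15 to 1.23). This passed a 2-sided Fisher exact test, with a Benjamini-Hochberg adjusted p of 1.51e-22 over 20 pairs. Such changes were common, since 75% of the pairs passed. Because shared 3p reads are in neither count, this is a ratio of reads assigned to one locus and not of the miR-128 made by each gene.

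The 20 pairs are the genes annotated in exactly 2 numbered copies, 43 pairs in all, of which 20 had a mean of 10 or more counts for both copies. By summed mean CPM the Mir128 pair was the highest of the 20, at 7665 ± 4227 CPM (SD, n = 2). Most of these pairs share a mature arm, and reads that fit both copies are in neither count. The levels of the pairs are thus of reads placed at a single gene. Mir138-1 and Mir138-2, which encode a dendritic microRNA, came next at 5751 CPM, and Mir129-1 and Mir129-2, also of neurons, at 3508 CPM. Mir138-1 and Mir138-2 had similar levels, with a log2 ratio of copy 1 over copy 2 of -0.31 in replicate 2 and 0.19 in replicate 1. It was the one pair of the 20 whose order turned between the libraries. Mir129-1 was below Mir129-2, with a log2 ratio of -1.98 in replicate 2 and -2.15 in replicate 1.

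Next in summed level were Mir219a-1 and Mir219a-2 of oligodendrocytes (3409 CPM), Mirlet7c-1 and Mirlet7c-2 (1897 CPM), and Mir125b-1 and Mir125b-2 (1623 CPM). Copy 1 exceeded copy 2 in both libraries in 6 pairs, the Mir128 pair among them, and copy 2 exceeded copy 1 in 13. By the size of its mean log2 ratio the Mir128 pair was 9th of the 20, close to the median size of 1.98. By the size of its change between libraries it was 14th, below the median size of 0.32. The largest changes were those of Mir26a-1 and Mir26a-2 (1.52), Mir219a-1 and Mir219a-2 (1.41) and Mir181a-1 and Mir181a-2 (-0.86), each as replicate 2 minus replicate 1 on the log2 scale. The order of the Mir128 genes thus held in both libraries, while the size of their ratio and the level of each gene differed.

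**Figure D3:**
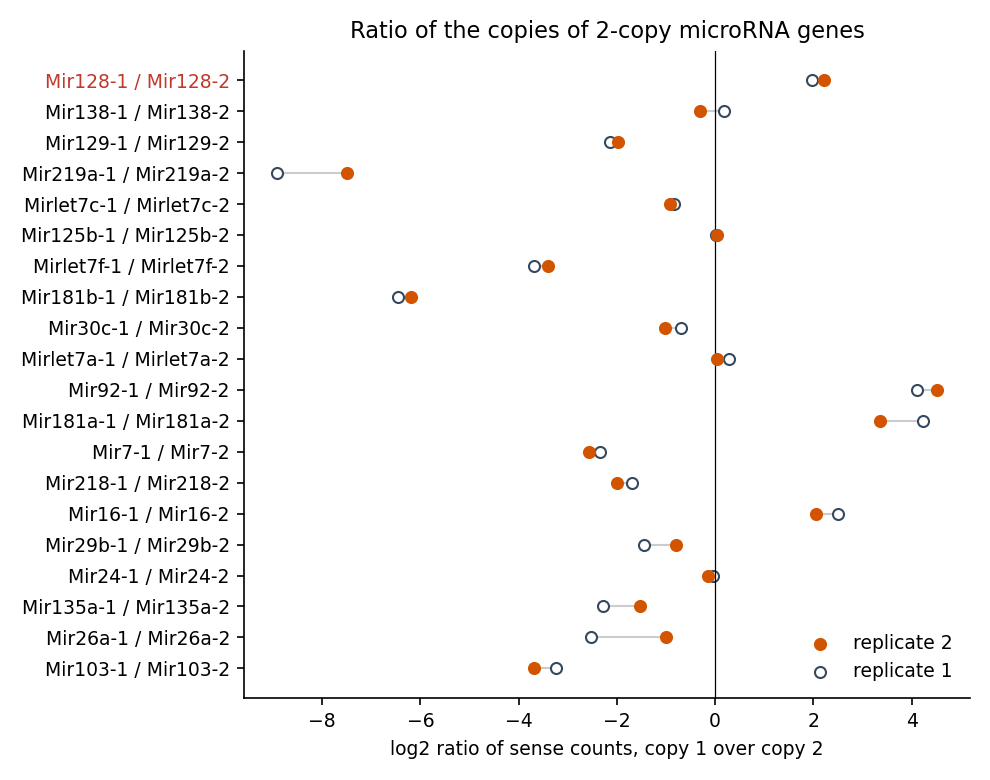
Log2 ratio of sense counts, copy 1 over copy 2, for the 20 pairs with enough counts, ordered from the highest summed level at the top. Filled circles are replicate 2 and open circles replicate 1. The Mir128 pair (red label) sits at 2.22 in replicate 2 and 1.97 in replicate 1.

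Replicate 2 was then compared with replicate 1 for every gene with a mean of 10 or more counts, 466 in all. Scaled by the trimmed mean of M values (TMM), Mir128-1 was higher in replicate 2 by 1.40 on the log2 scale (counting SE 0.01), a 2.63-fold difference. Mir128-2 was higher by 1.14 (counting SE 0.02), a 2.21-fold difference. Both passed a 2-sided Fisher exact test of the gene's counts against all other sense counts, as did 57.5% of the 466 genes. The adjusted p-values lay below the smallest number the software can represent. This test compares the libraries, covers counting error only and has no replicate check. By the same rule, which also asks for one sign under 3 scalings, a call of higher in replicate 2 went to 18% of the 466 genes and a call of lower to 35.6%, or 53.6% in either direction. Most genes were thus called, and the size of the ratio says more than the call.

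The log2 ratios of the 466 genes had an SD of 0.82, a median of -0.02 and a median size of 0.36. Mir128-1 had the 11th highest ratio and Mir128-2 the 22nd. Low counts widen such ratios, so the 89 genes that averaged at least 1000 CPM were also taken alone. Of these 34.8% were called higher in replicate 2, both Mir128 genes among them, and 50.6% lower. Among these the SD was 0.74, Mir128-1 had the 2nd highest ratio after Mir370, and Mir128-2 the 4th. The other gene between them was Mir139, at 1.27. In edgeR's fit with an intercept only, the biological coefficient of variation was 46.6% for Mir128-1 and 42.4% for Mir128-2, against 34.1% common to the 466 genes.

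**Figure D4:**
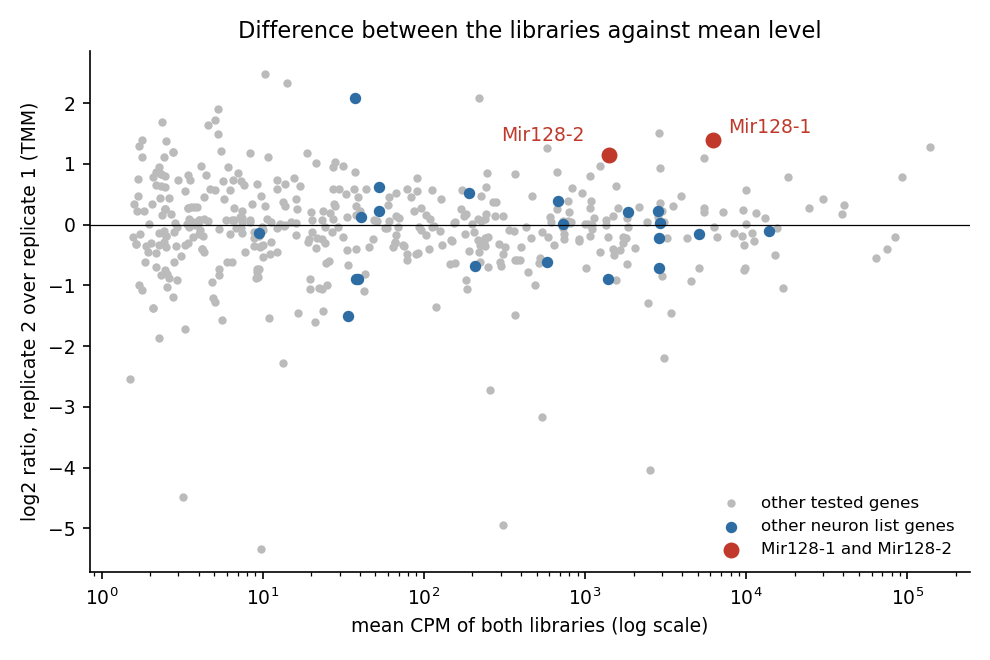
Log2 ratio of replicate 2 over replicate 1 (TMM scaling) against mean CPM on a log axis for the 466 tested genes. Each dot is a gene. Mir128-1 and Mir128-2 (red) lie at 1.40 and 1.14, in the upper edge of the abundant genes, while the other genes of the neuron list (blue) lie on both sides of 0.

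The nearest genes by level in both libraries, measured as the distance in log2(CPM + 1) over the 2 libraries, were Mir26b for Mir128-1 and Mirlet7c-2 for Mir128-2. Mir26b, in an intron of Ctdsp1, had 7195 CPM in replicate 2 and 3766 CPM in replicate 1 (distance 0.29). Its mean of 5480 ± 2425 CPM (SD, n = 2) lay within the SD of Mir128-1. The next nearest to Mir128-1 were Mir92b, Mir598, Mir30d and Mir487b, at distances of 0.80 to 1.00. Mirlet7c-2 had 1562 CPM in replicate 2 against 899 CPM in replicate 1 (distance 0.28), and Mir150, Mir668, Mir181b-2 and Mir204 followed at 0.45 to 0.71. All 10 were called higher in replicate 2, beside 18% of all 466 genes. They were picked by these same values, so the measure favours this and it adds no separate result. With 2 libraries this likeness is a description of levels.

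The pair was set beside a list of 27 microRNA genes known from neurons, of which 26 had a count and 23 were tested. Only 9 of the 27 share fewer than 18 bases with another hairpin. The order in the list is thus of reads placed at a single gene, and reads that fit several genes are left out. Mir128-1 was second in mean level after Mir132, an activity-induced microRNA that promotes dendrite growth, at 12540 CPM in replicate 2 and 15073 CPM in replicate 1. Mir383 stood at 4523 CPM in replicate 2 and 5617 CPM in replicate 1, so the values of Mir128-1 lay on both sides of those of Mir383. Mir485, a synaptic microRNA, had 2808 CPM in replicate 2 and 3068 CPM in replicate 1. Mir128-2 was 9th in the list, between Mir137 at 1860 ± 40.2 CPM and Mir7b at 1379 ± 688 CPM (SD, n = 2 each), and differed from neither beyond its own spread. Mir124a-2, one of the copies of the best known neuronal microRNA, had 0 counts in both libraries. It shares 32 bases with another hairpin, and a read within such a stretch would count towards none of the genes. The amount of miR-124 cannot be read from this.

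**Figure D5:**
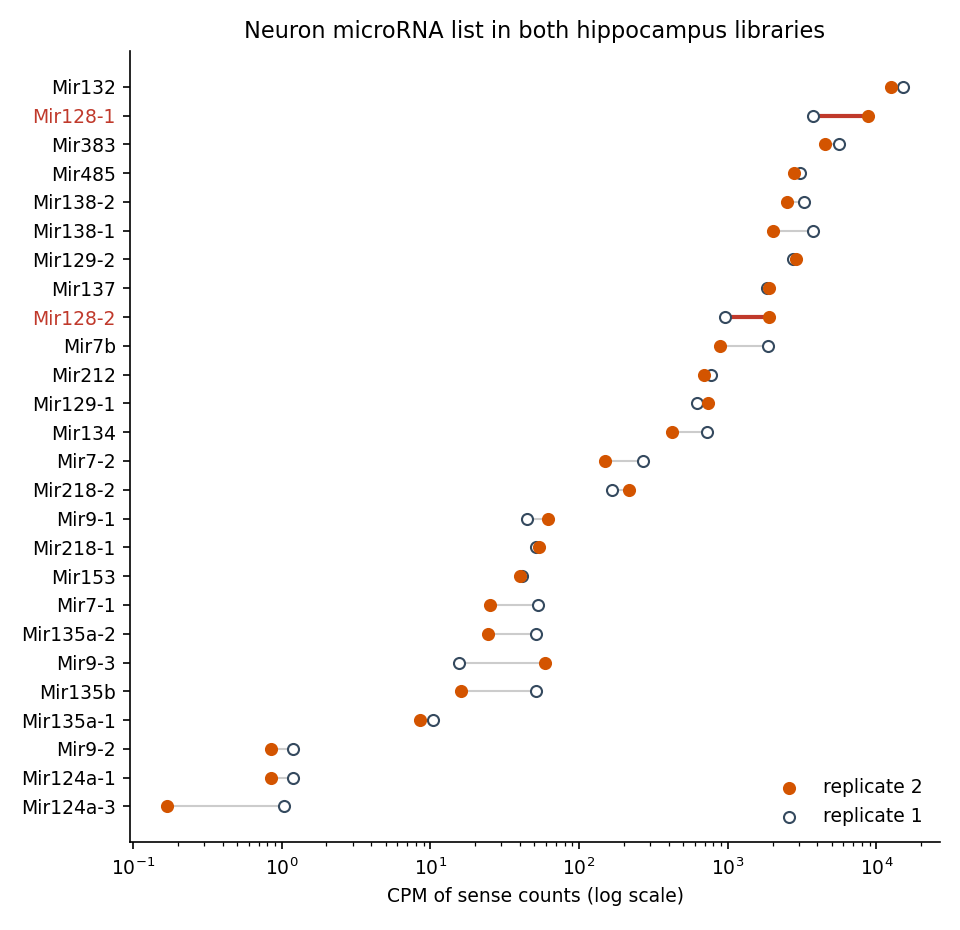
CPM on a log axis for the 26 genes of the neuron list with a count in both libraries, ordered by mean level. Filled circles are replicate 2 and open circles replicate 1. Mir128-1 and Mir128-2 (red) are higher in replicate 2, whereas Mir132, Mir383 and Mir138-1 are lower.

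Of the 23 tested genes 8 were higher in replicate 2, 10 were lower, 2 passed the exact test with a sign that depended on the scaling, and 3 did not pass. The called share was 78.3%, beside 53.6% of all 466 tested genes, of which 18% were called higher and 35.6% lower. Genes with many counts pass more readily, and among the 89 genes that averaged at least 1000 CPM 85.4% were called. Of the 23 list genes 10 are among these 89. The median log2 ratio of the list was 0.02 under TMM, against -0.02 for all tested genes, and -0.14 under totals, against -0.18. Mir9-3, Mir128-1 and Mir128-2 had the highest ratios in the list, with Mir9-3 at 2.08 from 347 counts in replicate 2 and 104 in replicate 1. The lowest belonged to Mir135b at -1.50, Mir7b at -0.90 and Mir7-1 at -0.90.

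The summed level of the neuron list differed less than that of the pair. The list held 43231 CPM in replicate 2 and 44751 CPM in replicate 1. Mir128-1 and Mir128-2 supplied 24.6% of this in replicate 2 and 10.4% in replicate 1. Reads that fit several genes are in none of these counts, so these are shares of reads placed at a single gene. Without them the remaining 25 genes held 32577 CPM in replicate 2 and 40075 CPM in replicate 1. Of the 10 list genes that averaged at least 1000 CPM, 4 were called higher, namely the Mir128 genes, Mir137 and Mir129-2, and 5 were called lower. Of all 89 genes at that level 34.8% were called higher and 50.6% lower, so the calls of the 10 lay near these shares. In CPM the summed level of the neuron list was thus not higher in replicate 2, while that of the pair was. The sum of the list was not compared under the other scalings, and a difference this small may change sign with them. The median log2 ratio of the list did so, at 0.02 under TMM and -0.14 under totals.

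Markers of other cell types also differed between the libraries, and their part in the Mir128 difference was not tested. The oligodendrocyte list of 3 genes, all detected, summed to 3193 CPM in replicate 2 and 7078 CPM in replicate 1. Within it Mir219a-2 had 1671 CPM in replicate 2 against 5126 CPM in replicate 1. Mir338 was also called lower in replicate 2, and Mir219a-1 was not called. Mir126a of endothelium stood at 2897 CPM in replicate 2 against 6191 CPM in replicate 1. The mural list of 2 genes, both detected, held 1504 CPM in replicate 2 and 2480 CPM in replicate 1. Mir143 was called lower in replicate 2, while Mir145a had 177 CPM in replicate 2 against 165 CPM in replicate 1 and was not called. The erythrocyte list of 3, all detected, held 32.7 CPM in replicate 2 against 73.1 CPM in replicate 1. Called lower in replicate 2 were 2 of 3 tested oligodendrocyte genes, Mir126a, 1 of 2 mural genes and 2 of 2 tested erythrocyte genes. In these lists 0 genes were called higher. Of all 466 genes 35.6% were called lower and 18% higher. The lists grouped here all had lower sums in replicate 2, so their calls add no separate result. The median log2 ratio (TMM) was -0.20 for the oligodendrocyte list, -0.93 for Mir126a, -0.19 for the mural list and -0.91 for the erythrocyte list.

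The sums of the other lists lay closer together, but each, like those of the oligodendrocyte and mural lists, is carried by abundant members. The astrocyte list of 6 genes held 69711 CPM in replicate 2 and 62928 CPM in replicate 1. The microglia and leukocyte list of 5 held 2238 CPM in replicate 2 against 2025 CPM in replicate 1, and the choroid plexus and ependyma list of 5 held 1747 CPM in replicate 2 and 2056 CPM in replicate 1. Every gene of these 3 lists had a count. The median log2 ratio was 0.20 for the astrocyte list (3 of 6 called higher, 2 lower), -0.63 for the microglia and leukocyte list (1 of 5 higher, 4 lower) and -0.99 for the choroid plexus and ependyma list (1 of 5 higher, 3 lower). Mir139, the most abundant gene, took 18.8% of the sense counts of replicate 2 and 8.72% of those of replicate 1, which lowers the CPM of all other genes in replicate 2. Without it in the totals the log2 ratios were 1.41 for Mir128-1 and 1.15 for Mir128-2, so the differences were as large.

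The family of microRNAs closest to miR-128 in its seed is miR-27, which is known from vessels, fat and glia. Its mature arms are printed with the seed in capitals to show the offset.
miR-27a-3p: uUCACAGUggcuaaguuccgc
miR-27b-3p: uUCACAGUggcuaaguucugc

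Bases 1 to 8 of miR-128-3p were identical to bases 2 to 9 of miR-27a-3p, so the seeds overlap but are shifted by 1 base. Written from miR-27a-3p to miR-27b-3p and counted from the 5' end, the arms differed at C19U. Mir27b had 1024 CPM in replicate 2 against 1198 CPM in replicate 1, and Mir27a had 61.7 CPM in replicate 2 and 88.2 CPM in replicate 1. As shares of all sense counts, which the Fisher exact test compares, the log2 ratio was -0.23 for Mir27b (adjusted p = 8.64e-20) and -0.51 for Mir27a (adjusted p = 1.89e-07). Under TMM the ratios were smaller, at -0.06 (counting SE 0.02) for Mir27b and -0.35 (counting SE 0.10) for Mir27a. The difference of Mir27b was thus close to 0 under TMM, and the size of its p-value belongs to the shares. Mir27b is also in the astrocyte list. Mir27a and Mir27b share 20 bases with another hairpin, and a read within such a stretch would count towards none of the genes. A read of a whole printed arm spans the base at which the arms differ. How many reads were left out was not tested.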

How the data were processed

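Small RNA below 30 nt was sequenced from 2 hippocampus libraries, per the labels. The authors deposited raw read counts per microRNA gene on mm10 with GENCODE M21, per the notes deposited with each library, while the software used for mapping and counting is not given in the sources used here. The labels link a different adapter-trimming document for each library, so trimming and biosample cannot be told apart. Each library has columns without strand, on the gene's strand (sense, used here) and on the opposite strand. The 4 read classes, 58.7% of reads in replicate 2 and 57.5% in replicate 1, were left out of totals.

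All 2202 identifiers matched GENCODE M21. Hairpins were compared with one another on both strands, without a search of the rest of the genome. CPM used sense totals. Ratios added 0.5 counts and used TMM factors from all genes with a count (edgeR 4.0.16). Fisher exact tests (scipy 1.17.1) were adjusted by Benjamini-Hochberg at 0.05 over the 466 genes that averaged at least 10 counts, or over 20 pairs. A call also needed the same sign with totals and with DESeq2 1.42.0 size factors as with TMM. A quasi-likelihood test needs 2 groups and was not possible. Tests were checked on simulated counts that held counting error only, so the check does not cover spread between libraries.

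Alternatives changed the column, scaling, added counts and filter, or left out a library. The members and lists were chosen with earlier results of these data known. Named genes were the pair, the 5 nearest genes to each, the 4 highest and 3 most changed each way of the neuron list, the 6 highest and 3 most changed pairs, and seed relatives. Mir139, Mir370, Mir137, the single oligodendrocyte and mural genes and the calls of single neuron list genes were named after their values were seen.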

Additional observations from a re-analysis of the deposited data

How the results depend on the processing

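In 34 of 37 alternatives other than leaving out a library, the results kept their direction and their side of the threshold or moved by less than the spread between the libraries. With 2 libraries, leaving 1 out always moves a mean by less than 1 SD and says nothing about stability. The log2 ratio of replicate 2 over replicate 1 ranged from 1.19 to 1.41 for Mir128-1 and from 0.94 to 1.15 for Mir128-2 over totals, DESeq2 size factors, totals without Mir139, totals of all read classes, counts without strand, other added counts and other filters. With CPM taken over reads of all classes the levels were 2601 for Mir128-1 and 591 for Mir128-2, since that total also holds reads given to no gene. Leaving out 1 library gave 8772 CPM without replicate 1 and 3723 CPM without replicate 2 for Mir128-1, and 1882 CPM without replicate 1 and 953 CPM without replicate 2 for Mir128-2, so each level rests on which library is read. The log2 ratio of Mir128-1 to Mir128-2 was 2.22 without replicate 1 and 1.97 without replicate 2. Of the 18 called neuron list genes 6 were left without members that share 18 or more bases with another hairpin, which leaves 9 of 27 members and removes Mir128-1 and Mir128-2. No paired analysis was possible because there is 1 group. How many 3p reads of the pair were given to no gene was not tested.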

Other observations

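In all, 1032 of the 2202 genes share 22 or more bases with another annotated hairpin. Of these 1032 genes 69, or 6.69%, had a mean of 10 or more counts, beside 466 of all 2202 genes. Why the share was lower was not tested. Mir128-1, which shares 23 bases with Mir128-2, had the highest mean level of these 1032 genes, and Mir128-2 had the 8th highest. The next after Mir128-1 were Mir219a-2 at 3399 ± 2443 CPM and Mir107 at 3076 ± 2928 CPM (SD, n = 2 each), named after their values were seen. Mir219a-2 had 1671 CPM in replicate 2 against 5126 CPM in replicate 1, and Mir107 had 1005 CPM in replicate 2 and 5146 CPM in replicate 1. Both were lower in replicate 2, whereas the Mir128 genes were higher. Of the genes that follow them in level, Mir138-1 and Mir138-2 were called lower and Mir129-2 was called higher. Among all 89 genes that averaged at least 1000 CPM 50.6% were called lower and 34.8% higher, so both directions were common.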
